A study of Homo sapiens with 12 samples.

Results

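The 10 genes described here are the TGF-beta ligands TGFB1 and TGFB2, the receptors TGFBR1, TGFBR2 and TGFBR3, the receptor-activated SMADs SMAD2, SMAD3 and SMAD5, the common partner SMAD4 and the inhibitory SMAD7. They were taken as the genes whose RefSeq transcripts are named by non-control probes of the array. All 10 were measured, among 18252 genes tested in the series. They have 101 probes, of which 93 were kept, those well above background throughout at least 1 group.

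TGF-beta signals through a chain that is well described. A ligand dimer binds the type II receptor TGFBR2, which recruits and phosphorylates the type I receptor TGFBR1, with the co-receptor TGFBR3 (betaglycan) presenting ligand. TGFBR1 phosphorylates SMAD2 and SMAD3, which join SMAD4, enter the nucleus and change transcription, while SMAD7 shuts the receptor down and SMAD5 serves the related BMP receptors. In breast epithelium the pathway is known to restrain growth early in disease and to favour invasion in advanced tumours.

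The cells were MDA-MB-231, an established human breast cancer line of mesenchymal character. RNA was measured on 12 one-colour Agilent SurePrint G3 Human Exon arrays, 3 per group. The cntrl group received control oligonucleotides for both treatments, and the mimic145 group a precursor of miR-145-5p. The sirnaAGO2 group received a Dicer-substrate siRNA against AGO2, the Argonaute protein that cleaves target RNA, and sirnaAGO2+mimic145 received both agents. The mimic or its control was used at 5 nM, and the siRNA or its control at 500 pM for 72 h. The labels name both control oligonucleotides for cntrl and do not say which controls the single-agent groups received. They describe the experiment as a biological triplicate.

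The introduced microRNA is printed here because it is the agent whose effect on the pathway is compared. Bases 2 to 8, the seed with which a microRNA pairs to its targets, are in capitals. The sequence is RefSeq's, from chr5:149430661-149430683 of GRCh38.p14, plus strand.
hsa-miR-145-5p: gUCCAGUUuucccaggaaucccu
A transcript site that pairs with this seed reads AACUGGA.

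Several facts of the whole series bear on these genes. The share of spots well above background ran from 60.5% to 77.3% over the arrays, and 3 arrays per group limit the precision. All 6 markers of MDA-MB-231 (VIM, CD44, ZEB1, AXL, CAV1 and MSN) were measured, with 68 of their 74 probes above background on all 12 arrays. Of the luminal epithelial probes 29 of 92 were above background on all 12 arrays, and of the leukocyte probes 8 of 59. PGR and FOXA1 had no kept probe, while KRT19 and GATA3 had 6 probes each, all above background on every array. After the mimic 3 of 6 luminal markers tested and 0 of 6 MDA-MB-231 markers passed the test, beside 22.6% of all genes. KRT19 was higher by 0.33, and EPCAM and ERBB3 were different by -0.83 and -0.39 on the log2 scale. CD14, on 1 kept probe, was higher by 0.37. In silenced cells CD14 was higher with the mimic by 1.01. With silencing of mimic-treated cells CD14 was higher by 0.96, and KRT19 differed by -0.28. Of the probes of PTPRC, carried by leukocytes in general, 25 of 33 were above background on no array. Their part in the results was not tested. AGO2, the silenced gene, read (log2 of normalized intensity) 9.21, 9.14 and 9.01 in cntrl and 8.35, 8.44 and 8.42 in sirnaAGO2, a fall to 61.0% (log2 difference -0.71, limma adjusted p = 0.00492). In mimic-treated cells the AGO2 signal averaged 48.1% after silencing. Both shares are means over 19 probes, which ran from -1.40 to -0.13 with silencing alone and from -2.22 to -0.08 in mimic-treated cells. The probe at -2.22, A_37_P393960, was above background on 0 of 3 sirnaAGO2+mimic145 arrays, so the 48.1% is uncertain. Each of these 2 falls was called in 21 of 26 alternatives to the main processing. With the mimic alone AGO2 was higher by 0.28 on the log2 scale (limma adjusted p = 0.0298). That rise was called in 13 of 26 alternatives to the main processing, and 1 of 19 probes was lower. Each slide held 1 array without the mimic in its first position and the mimic array of the same replicate in its second, so slide position and mimic treatment cannot be told apart. No slide held silenced and unsilenced arrays together. In bulk extracts of this kind, fewer cells of a type and less RNA per cell cannot be told apart.

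The first comparison asked how the miR-145-5p mimic changed these genes in cells with their AGO2. TGFBR2 and SMAD4 fell, and the other 8 genes did not pass the test. TGFBR2 fell to 68.9% of its cntrl level and SMAD4 to 81.6%. The call was limma's test with the replicate as a block, at a Benjamini-Hochberg adjusted p under 0.05 over all genes. By the same rule 22.6% of all genes tested were called, 11.6% higher and 11.0% lower, so 2 of 10 is close to the background share. At an unadjusted p under 0.05 the count was 4 of 10, beside 35.4% of all genes. Unadjusted, the methods' paired t-test counted 1 of the 10, SMAD4 and not TGFBR2, and 3868 of 18252 genes in all. The median log2 difference of the 10 genes was -0.03, against 0.01 over all genes.

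**Figure D1:**
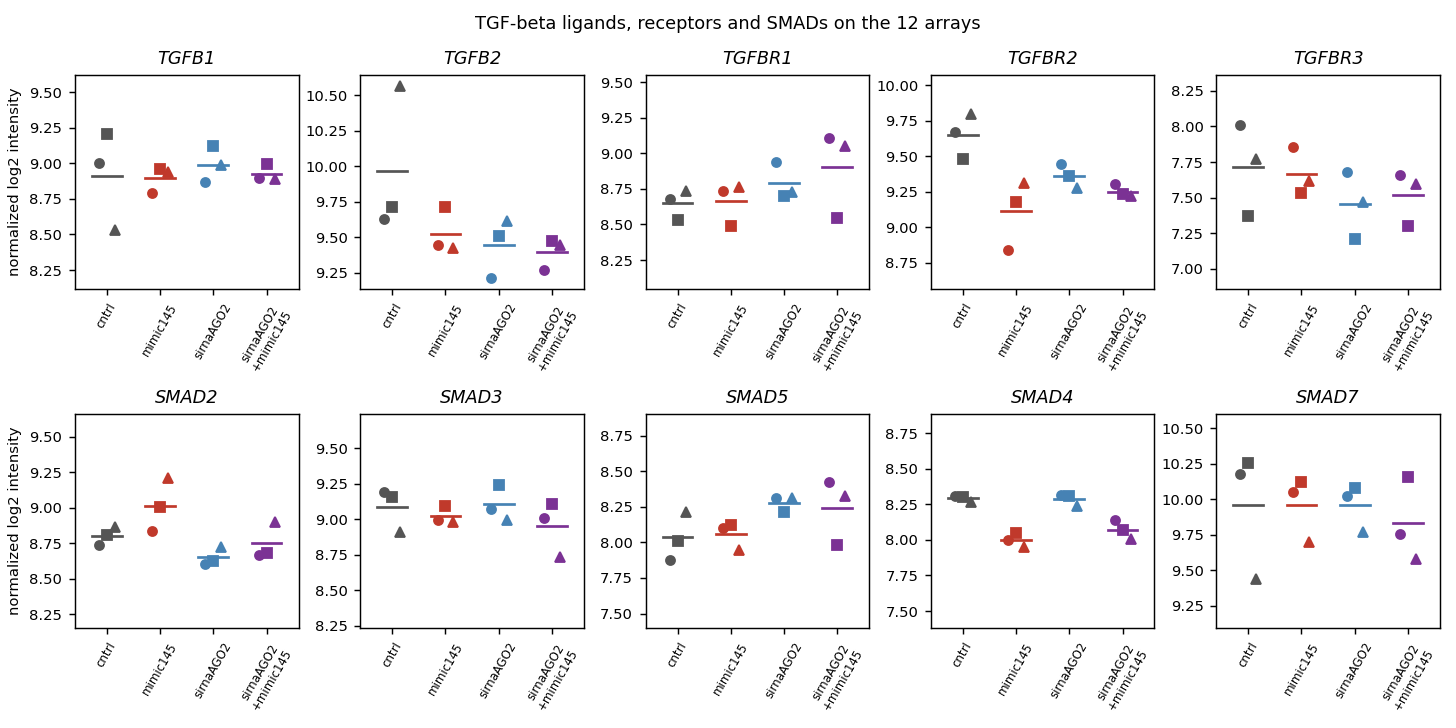
Normalized log2 intensity (vertical axis, every panel spans the same range of log2 units) of each gene on the 12 arrays, by group. Circles, squares and triangles are replicates 1, 2 and 3 and bars are group means of n = 3: TGFBR2 and SMAD4 on the mimic145 arrays all lie below the 3 cntrl arrays, and the cntrl array of replicate 3 stands high for TGFB2 and low for TGFB1 and SMAD7.

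Of the ligands, TGFB1 (chr19:41330323-41353922, GRCh38.p14 as for all genes here) read 9.01, 9.20 and 8.53 in replicates 1, 2 and 3 of cntrl and 8.79, 8.96 and 8.94 in mimic145, on the log2 scale of normalized intensity. Replicates 1 and 2 were lower with the mimic and replicate 3 was higher, so the difference of -0.02 (SE 0.13) averaged opposite signs. TGFB2 (chr1:218345336-218444619) read 9.63, 9.71 and 10.56 in cntrl against 9.45, 9.71 and 9.42 in mimic145. The cntrl array of replicate 3 stood far above the other 11 arrays, and the groups overlapped. The log2 difference was -0.44 (SE 0.18, limma adjusted p = 0.122), and all 10 probes had a lower mean, between -1.01 and -0.20. Without cntrl replicate 3 the difference was -0.16 (limma adjusted p = 0.353).

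Of the receptors, TGFBR2 moved most. This type II kinase, which binds the ligand first, lies at chr3:30606356-30694142. In replicates 1, 2 and 3 it read 9.67, 9.48 and 9.80 in cntrl and 8.84, 9.18 and 9.31 in mimic145. Every mimic145 array was below every cntrl array. The 3 pair differences were uneven, at -0.83, -0.30 and -0.48, and the methods' paired t-test did not count TGFBR2 even unadjusted. The mean went from 9.65 ± 0.16 to 9.11 ± 0.24 (SD, n = 3 each), a log2 difference of -0.54 (SE 0.12, 95% interval -0.82 to -0.26, limma adjusted p = 0.0146). All 6 kept probes were lower in all 3 replicate pairs, with probe differences between -0.77 and -0.32. The probe at -0.77, A_37_P020981, was well above background on only 1 of 3 mimic145 arrays, and with probes above background on all 12 arrays, which drops it, the difference of TGFBR2 was -0.49 (limma adjusted p = 0.00793). These 6 probes name transcript NM_001024847, and the 1 probe for NM_003242 was above background on no array. The call was lost without cntrl replicate 1 or 3 (-0.50 and -0.48, limma adjusted p = 0.0591 and 0.0644), and without all arrays of replicate 1 or 3 (-0.39 and -0.56, limma adjusted p = 0.115 and 0.0687).

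TGFBR1, the type I kinase that phosphorylates SMAD2 and SMAD3, lies at chr9:99103647-99154192. It read 8.68, 8.53 and 8.73 in cntrl and 8.74, 8.49 and 8.77 in mimic145. The groups overlapped, and the log2 difference was 0.01 (SE 0.10, limma adjusted p = 0.935). Its probes parted: 7 of 9 were higher with the mimic, between 0.03 and 0.31, while probe A_33_P3331451 was lower by a difference of -0.90 and probe A_37_P098153 by -0.35. Both lower probes were well above background on only 10 of the 12 arrays. With probes above background on all 12 arrays alone, the log2 difference of TGFBR1 was 0.20 and passed (limma adjusted p = 0.0369). TGFBR3, the co-receptor at chr1:91680343-91906002, ranged from 7.37 to 8.01 in cntrl and from 7.53 to 7.86 in mimic145. Its difference of -0.05 (SE 0.08, limma adjusted p = 0.717) lay within this spread, with 9 of 15 probes lower.

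The receptor-activated SMADs carry the signal to the nucleus. SMAD2, at chr18:47808957-47930872, read 8.74, 8.81 and 8.86 in cntrl and 8.83, 9.00 and 9.21 in mimic145. It was higher in each replicate pair, although the lowest mimic145 array lay within the cntrl range. The log2 difference of 0.21 (SE 0.07) missed the threshold (limma adjusted p = 0.0591), and 10 of 11 probes were higher. It passed in 4 of 26 alternatives, over which the difference ran from 0.10 to 0.27. These 4 were normexp background correction (limma adjusted p = 0.0337), the authors' log2 table (limma adjusted p = 0.0225), probes above background on all 12 arrays (limma adjusted p = 0.0369) and an intensity trend (limma adjusted p = 0.0449). SMAD3 (chr15:67065602-67195169) had a difference of -0.07 (SE 0.08) and SMAD5 (chr5:136132845-136182733) of 0.02 (SE 0.12). Neither gene separated the groups: SMAD3 spanned 8.91 to 9.19 in cntrl and 8.98 to 9.09 in mimic145, and SMAD5 spanned 7.88 to 8.22 and 7.95 to 8.12. Of the SMAD3 probes, A_23_P48936 differed by -0.31 while A_37_P180084 differed by 0.23.

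SMAD4, the shared partner without which activated SMADs do not form the usual complex, lies at chr18:51030213-51085042. It read 8.31, 8.30 and 8.27 in cntrl and 8.00, 8.05 and 7.95 in mimic145. The 3 mimic145 arrays lay below all cntrl arrays, and both groups had a narrow spread (8.29 ± 0.02 and 8.00 ± 0.05, SD, n = 3 each). The log2 difference was -0.29 (SE 0.06, 95% interval -0.42 to -0.16, limma adjusted p = 0.00696). All 12 probes had a lower mean, 9 of them in all 3 pairs, between -0.58 and -0.02. The call was lost without all arrays of replicate 1, 2 or 3, at differences of -0.29, -0.31 and -0.28 (limma adjusted p = 0.115, 0.0615 and 0.0736). SMAD7, the inhibitor at chr18:48919853-48950965, read 10.18, 10.25 and 9.44 in cntrl and 10.05, 10.12 and 9.70 in mimic145. Replicate 3 was the lowest in both groups, and the means did not part (SE 0.11, limma adjusted p = 0.994), with 2 of 4 probes lower.

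**Figure D2:**
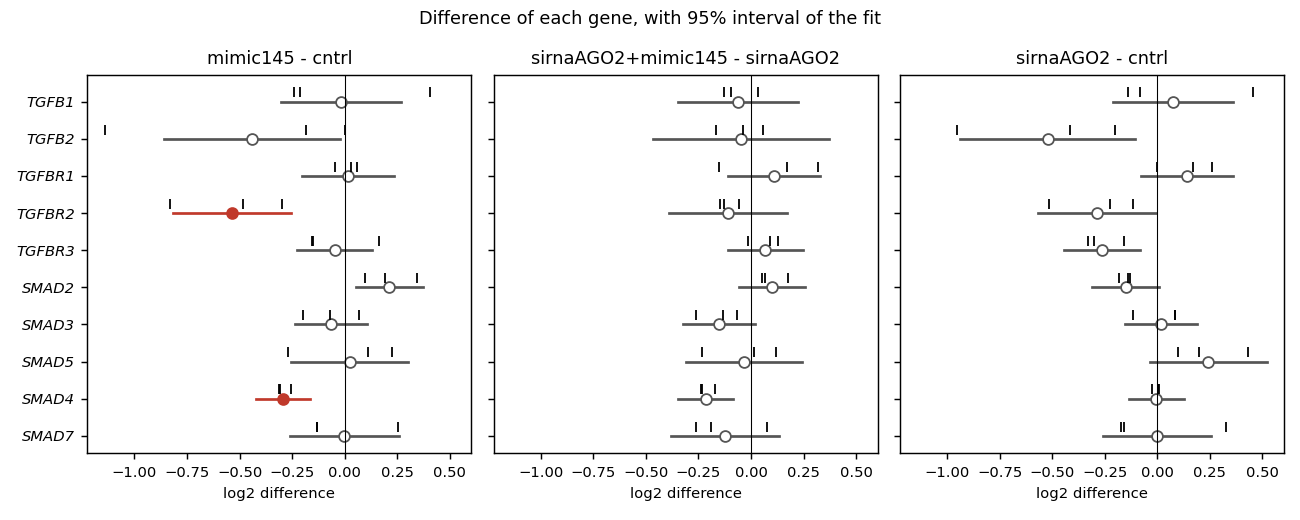
Log2 difference of each gene (horizontal axis) for the mimic in unsilenced cells, the mimic in AGO2-silenced cells, and silencing alone. Circles and bars are the limma estimate and its 95% interval, ticks above each bar are the 3 replicate pairs, and filled red marks the calls, TGFBR2 and SMAD4 with the mimic in unsilenced cells.

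The second comparison gave the effect of the mimic where AGO2 was silenced. None of the 10 genes passed in limma's test, against 7.27% of all genes (4.24% higher and 3.03% lower). This share rested on single arrays, since 1327 genes were called with all arrays, 83 without sirnaAGO2 replicate 2 and 76 without sirnaAGO2 replicate 3. At an unadjusted p under 0.05 limma counted 1 of 10, below the 28.8% of all genes. The methods' paired t-test, which counted 2600 of 18252 genes unadjusted, also counted 1 of the 10, in both cases SMAD4. TGFBR2 read 9.45, 9.36 and 9.28 in sirnaAGO2 and 9.30, 9.23 and 9.22 in sirnaAGO2+mimic145. It was lower in each pair, the groups overlapped, and the difference was -0.11 (SE 0.12, 95% interval -0.39 to 0.17, limma adjusted p = 0.583). Of its 6 probes 4 were lower.

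SMAD4 read 8.31, 8.31 and 8.24 in sirnaAGO2 and 8.14, 8.07 and 8.00 in sirnaAGO2+mimic145. All sirnaAGO2+mimic145 arrays were again below all arrays without the mimic. The difference was -0.22 (SE 0.06, 95% interval -0.35 to -0.09) and just missed the threshold (limma adjusted p = 0.0544), with 11 of 12 probes lower. It passed in 3 of 26 alternatives, over which the difference ran from -0.24 to -0.16. These 3 were normexp background correction (limma adjusted p = 0.0385), the authors' log2 table (limma adjusted p = 0.0415) and probes above background on all 12 arrays (limma adjusted p = 0.0313). With that last filter TGFBR1 passed too, at a difference of 0.24 (limma adjusted p = 0.0332), against 0.11 with all kept probes. The remaining differences lay between -0.15 (SMAD3) and 0.10 (SMAD2). That of SMAD7, -0.13, averaged probes that parted, with 2 of 4 lower. Probe A_37_P455295 differed by -0.85 and A_37_P101136 by 0.34, each with 1 sign in all 3 pairs.

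**Figure D3:**
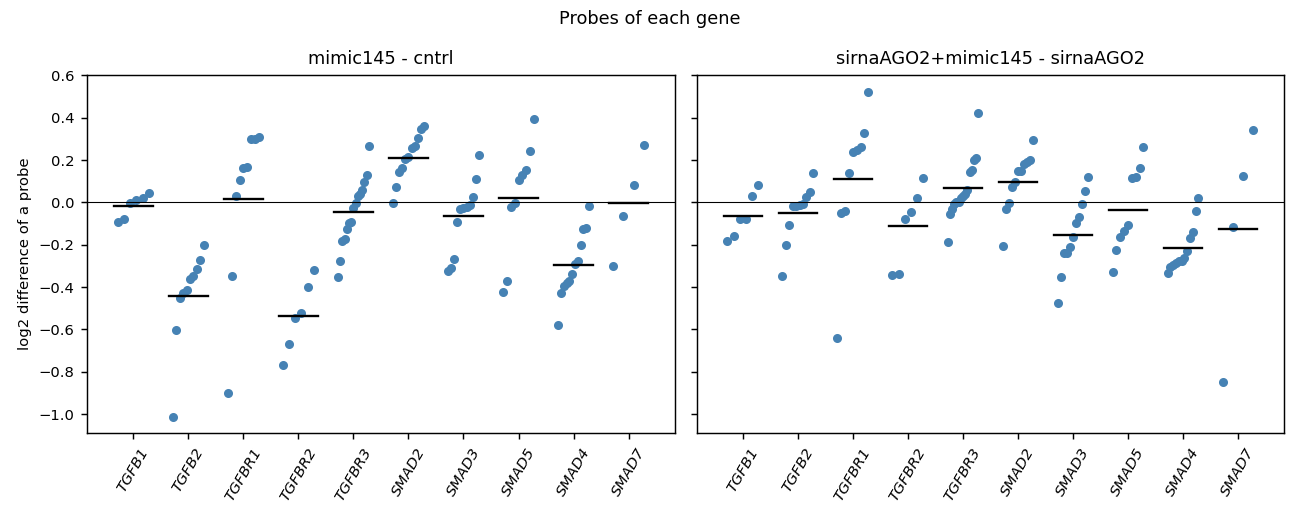
Log2 difference of every kept probe (points, sorted within a gene) and the mean over probes (bars) with the mimic in unsilenced cells (left) and in AGO2-silenced cells (right). Probes of a gene are not replicates: all 6 of TGFBR2 and all 12 of SMAD4 lie below 0 on the left, and 1 TGFBR1 probe lies far below the other 8 in both panels.

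Whether the mimic acted differently in the silenced cells was tested as the difference of its effects. No member of the 10 passed in limma's test, against 0.0110% of all genes (0.00548% in each direction), and 1 of 10 had an unadjusted p under 0.05, below the 16.8% of all genes. The methods' paired t-test counted 0 unadjusted, and 1888 of 18252 genes in all. The gene limma counted was TGFBR2, whose effect was less negative in silenced cells by 0.43 on the log2 scale (SE 0.18, 95% interval 0.03 to 0.82, limma unadjusted p = 0.0380, adjusted p = 0.273). All 3 replicates had this sign, at 0.68, 0.17 and 0.42, and all 6 probes had it in the mean. For SMAD4 the difference of effects was 0.08 (SE 0.08, 95% interval -0.11 to 0.26, limma adjusted p = 0.643). For neither gene was a difference of the mimic's effect shown after adjustment.

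AGO2 silencing alone called none of the 10 genes in limma's test, against 2.58% of all genes (0.888% higher and 1.69% lower). At an unadjusted p under 0.05 limma counted 3 of 10 (TGFB2, TGFBR2 and TGFBR3), beside 19.0% of all genes. The methods' paired t-test counted 2 unadjusted (TGFBR3 and SMAD2), and 3186 of 18252 genes in all. This comparison shares its cntrl arrays with the mimic comparison in unsilenced cells and its sirnaAGO2 arrays with that in silenced cells. TGFB2, at 9.21, 9.51 and 9.61 in sirnaAGO2, lay below all cntrl arrays, with a difference of -0.52 (SE 0.18, limma adjusted p = 0.173) that was -0.24 without cntrl replicate 3. TGFBR2 lay below all cntrl arrays too, by a difference of -0.29 (SE 0.12, limma adjusted p = 0.254). The share of all genes whose groups separated in this way was not counted in any comparison. TGFBR3 read 7.68, 7.21 and 7.47 against 8.01, 7.37 and 7.77 and was lower in each pair and on all 15 probes, with overlapping groups. Its difference was -0.26 (SE 0.08, limma adjusted p = 0.118), and it passed with probes above background on all 12 arrays (-0.34, limma adjusted p = 0.0442).

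Of the SMADs, SMAD2 read 8.61, 8.63 and 8.72 in sirnaAGO2, below every cntrl array (difference -0.15, SE 0.07, limma adjusted p = 0.287). SMAD5 was higher in all pairs and on all 9 probes, at 8.31, 8.21 and 8.31 against 7.88, 8.01 and 8.22 (difference 0.24, SE 0.12, limma adjusted p = 0.320), with the groups just overlapping. For SMAD4 the 95% interval of the difference ran from -0.13 to 0.13 (limma adjusted p = 0.974).

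With the mimic present, silencing again called none of the 10 genes, against 4.31% of all genes (1.86% higher and 2.44% lower). The unadjusted count was 2 of 10 by limma (SMAD2 and TGFBR1), close to the 21.5% of all genes. It was 1 by the methods' paired t-test (SMAD2), beside 2216 of 18252 genes. SMAD2 read 8.67, 8.68 and 8.90 in sirnaAGO2+mimic145 and was below its mimic145 array in every replicate. The groups overlapped, and the difference was -0.26 (SE 0.07, limma adjusted p = 0.0692). It passed in 4 of 26 alternatives, over which the difference ran from -0.32 to -0.11. These 4 were normexp background correction (limma adjusted p = 0.0319), the authors' log2 table (limma adjusted p = 0.0440), probes above background on all 12 arrays (limma adjusted p = 0.0401) and an intensity trend in limma (limma adjusted p = 0.0475). TGFBR1 read 9.11, 8.55 and 9.05 in sirnaAGO2+mimic145, higher than mimic145 in each pair, by 0.24 (SE 0.10, limma adjusted p = 0.193).

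Ordered by its mean, TGFBR2 was highest in cntrl, then sirnaAGO2 (9.36), sirnaAGO2+mimic145 (9.25) and mimic145 (9.11). No neighbouring groups in that order differed in limma's test, with adjusted p of 0.254, 0.583 and 0.561. For SMAD4 cntrl and sirnaAGO2 had the same mean of 8.29, followed by sirnaAGO2+mimic145 (8.07) and mimic145 (8.00). There the step from sirnaAGO2 to sirnaAGO2+mimic145 was the largest between neighbours.

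Among 13316 other genes with at least 3 kept probes, the pattern most like that of SMAD4 over the 12 arrays was that of ABHD17C (Pearson r = 0.985), and the one most like TGFBR2 was RSPH3 (r = 0.933). The closest to SMAD2 was COL4A5 (r = 0.947), to SMAD5 GK (r = 0.949), to SMAD7 AURKC (r = 0.953) and to SMAD3 FARP1 (r = 0.923). TGFBR1 was closest to FNDC3A (r = 0.922), TGFBR3 to IRF1 (r = 0.928), TGFB1 to INTS1 (r = 0.923) and TGFB2 to ATP10D (r = 0.929). The points share arrays and replicates, and with so many genes searched over 12 arrays a high r is a description only. Among the 10 genes themselves r ran highest for SMAD3 and SMAD7 (0.818), and it was 0.698 for SMAD4 and TGFBR2.

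Other genes of the pathway came from lists of ligands, activators, receptors, SMADs, antagonists and regulators. In unsilenced cells with the mimic 19 of their 67 genes tested were called, 9 higher and 10 lower, with a median difference of 0.06, against 0.01 and 22.6% called over all genes. Of 11 other ligands tested 3 were called. INHBA, the activin A subunit measured on 1 probe, rose by 1.39 (SE 0.16, limma adjusted p = 0.000639), GDF15 rose by 0.68 and BMP4, a ligand of the SMAD5 branch, fell by 0.45. Of 10 genes for latency and activation 3 were called. LTBP1, which holds latent TGF-beta in the matrix, rose by 0.55, whereas THBS1 and the integrin subunit ITGAV, both able to activate latent ligand, fell by 1.08 and 0.34.

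Of 11 other receptors 3 were called, and for this and the next lists the share over all genes was again 22.6%. The activin receptors ACVR2B and ACVR1B fell by 0.36 and 0.26, and the BMP receptor BMPR2 rose by 0.25 (limma adjusted p = 0.0116, 0.0385 and 0.0393). They were called in 15, 7 and 10 of 26 alternatives. Above background on all 3 mimic145 arrays were 6 of 8 ACVR2B probes and 3 of 5 ACVR1B probes. Of 3 other SMADs the inhibitory SMAD6 fell by 0.43, and of 8 extracellular antagonists FSTL1 and DCN rose by 0.73 and 0.31. Of the 2 DCN probes 1 was above background on all 3 mimic145 arrays. The DCN rise ran from 0.05 to 0.50 over the alternatives and was called in 16 of 25, so its size is uncertain. Of 24 intracellular regulators 7 were called. SPTBN1, DAB2 and ZFYVE9, adaptors that bring SMADs to the receptors, fell by 0.82, 0.62 and 0.57. Of their kept probes 37 of 38, 8 of 12 and 10 of 17 were above background on all 3 mimic145 arrays. The sizes for DAB2 and ZFYVE9 are thus less certain. The kinase adaptor TAB2, the deubiquitinase USP15 and the ubiquitin ligase SMURF2 rose by 0.35, 0.34 and 0.33, and were called in 17, 13 and 18 of 26 alternatives. SMURF2 and SMAD6 are inhibitors of the pathway, and they did not share a direction.

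Of 28 response genes 12 were called, 6 higher and 6 lower, beside 22.6% of all genes (11.6% higher and 11.0% lower). Their median difference was 0.10, against 0.01 over all genes. TGFBI, named for its induction by TGF-beta, fell by 1.37 to 38.7% (SE 0.13, limma adjusted p = 0.000262). The matrix protein CCN1 fell by 0.63. In the other direction TAGLN, an actin-binding protein, rose by 1.08 (SE 0.13). JUNB, on 1 kept probe, and ID2 rose by 0.56 each. Above background on all 3 cntrl arrays were 3 of 5 TAGLN probes and 2 of 3 ID2 probes, so these sizes are uncertain. Over the alternatives the TAGLN rise ran from 0.68 to 1.40. Both signs were thus found among known response genes.

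**Figure D4:**
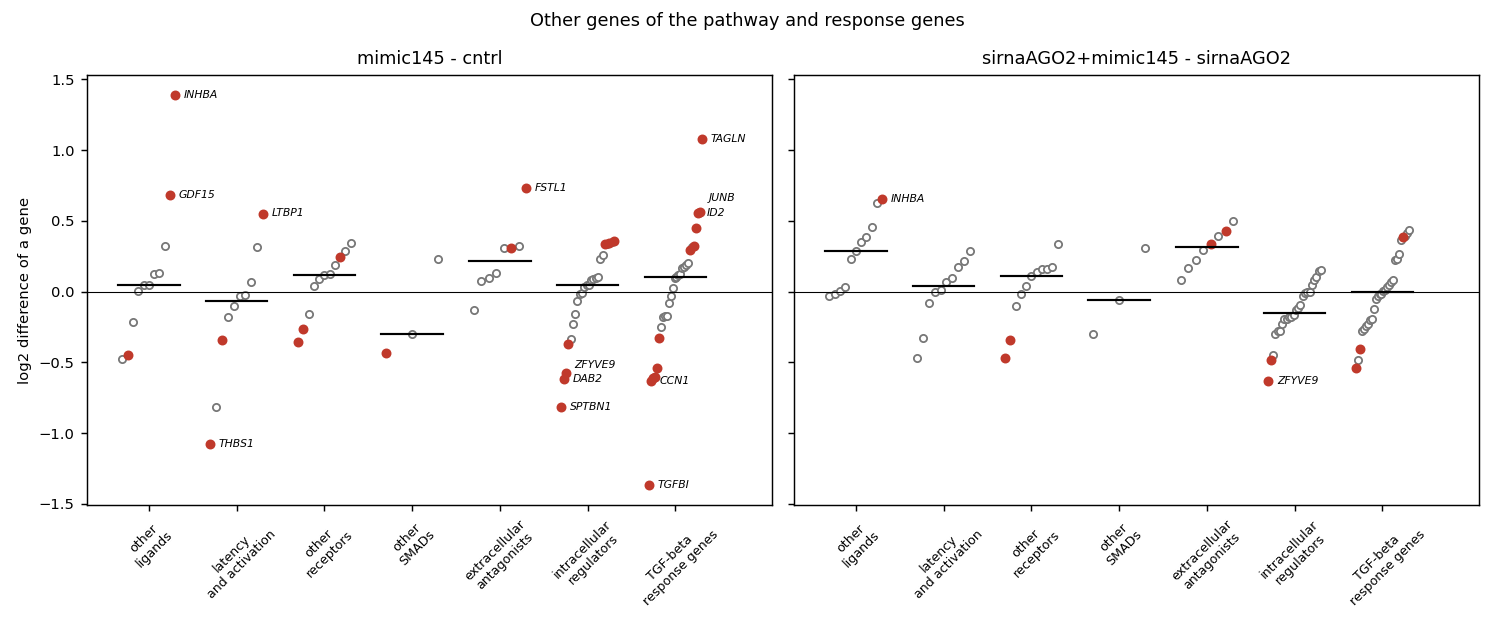
Log2 difference (vertical axis) of each gene of the 7 lists with the mimic in unsilenced cells (left) and in AGO2-silenced cells (right). Filled red points were called, bars are medians of a list and names are given for the genes described in the text that were called and lie past 0.5 in size: TGFBI and THBS1 are lowest on the left and INHBA and TAGLN highest.

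In silenced cells the mimic called 7 of the 67 pathway genes and 3 of the 28 response genes, beside 7.27% of all genes. ZFYVE9, DAB2, ACVR2B and ACVR1B fell by 0.63, 0.48, 0.47 and 0.34, and KLF10 by 0.41. Probes above background on all 3 sirnaAGO2+mimic145 arrays were 8 of 17 for ZFYVE9, 6 of 12 for DAB2 and 5 of 8 for ACVR2B. They were 2 of 5 for ACVR1B and 3 of 5 for KLF10, so the sizes of these falls are uncertain. Over the alternatives the smallest were -0.38, -0.26, -0.23, -0.18 and -0.07, and KLF10 was called in 4 of 26. FSTL1, DCN and JUNB rose by 0.43, 0.34 and 0.39, called in 8 of 26, 11 of 25 and 11 of 26 alternatives. In each group compared, 1 of the 2 DCN probes was above background on all 3 arrays. The DCN rise ran from 0.15 to 0.68 over the alternatives. INHBA was called as well, but its probe was well above background on none of the 3 sirnaAGO2+mimic145 arrays, and no fold is given against sirnaAGO2. SPTBN1 differed by -0.18 there (limma adjusted p = 0.252) and TGFBI by -0.48 (limma adjusted p = 0.0534). No gene of these lists passed the test of the difference of effects, with 12 of 67 and 6 of 28 at an unadjusted p under 0.05 in limma, beside 16.8% of all genes. That difference was 0.64 for SPTBN1 (limma adjusted p = 0.0892) and 0.89 for TGFBI (limma adjusted p = 0.0837).

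Silencing alone called 4 of 67 pathway genes and 2 of 28 response genes, beside 2.58% of all genes. ACVR2B, FSTL1 and CCN2 rose by 0.51, 0.55 and 0.51, whereas BMP4 and TPM1 fell by 0.49 and 0.60. INHBA was called lower, but no size is given because its probe was well above background on only 1 of 3 sirnaAGO2 arrays. With the mimic present silencing called 3 of 67 and 7 of 28, beside 4.31% of all genes, with FN1, TAGLN and CDKN1A lower by differences of -0.87, -0.64 and -0.44 and SPTBN1, CCN2, CCN1 and ACVR2B higher by 0.65, 0.48, 0.43 and 0.39. The size for TAGLN is uncertain, with 3 of 5 probes above background on all 3 sirnaAGO2+mimic145 arrays. INHBA was called lower here too (limma adjusted p = 0.00274). No size is given, because its probe was well above background on none of the 3 sirnaAGO2+mimic145 arrays.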

How the data were processed

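Groups and replicate numbers came from the sample labels, and dose and time from the protocols there. The authors labelled total RNA with Cy3, and scans were extracted in Feature Extraction 10.7.3.1, per the file headers; the deposited processed signal is a background-corrected intensity per spot, not normalized between arrays. The authors also deposited a quantile normalized log2 table of 217027 probes, used as an alternative. No spot was saturated, and 304 to 462 outlier spots per array were left out.

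Intensities were set to at least 1, quantile normalized, put on the log2 scale and averaged over spots and then over the kept probes of a gene. Probes were named through RefSeq accessions (GRCh38.p14; the array grid is hg19), which matched 209671 of 233164. Of 142919 kept probes, the median gene had 5, and 2836 genes had 1.

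All 12 arrays entered one fit in limma 3.58.1 (R 4.3.3) with the replicate number as a block, following the paired test of the methods. Same-numbered arrays deviated together in all 18 pairs (r from 0.148 to 0.576). For the 36 pairs of different number and different group r ran from -0.497 to 0.201, so the ranges overlapped slightly. Script and model were tested on simulated data. The members, lists and tests were chosen with earlier results of these data known. Named list genes are up to 3 of the largest rises and 3 of the largest falls of a list among those called with 1 sign in all 3 pairs. The values of 1 response gene that this rule names are not reported here. INHBE, MSTN, PGR and FOXA1 had no kept probe and USP11 no matched probe. Alternatives were 75th percentile scaling, normexp (offset 50), the log2 table, other probe filters and summaries, other blocks and samples in the fit, a trend, the methods' paired t-test and leaving out replicates or arrays.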

Additional observations from a re-analysis of the deposited data

How the results depend on the processing

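No called difference of the 10 genes changed sign under any alternative, while 18 values came to pass the threshold and 12 no longer did. Leaving the unadjusted paired test aside, the TGFBR2 fall with the mimic was called in 20 of 26 alternatives (difference -0.66 to -0.38, limma adjusted p from 0.00327, with 0.272 for the methods' paired t-test) and the SMAD4 fall in 21 of 26 (-0.33 to -0.24, adjusted p 0.00311 to 0.152). The cause of the changes below was not tested.

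Of the 10 genes, the mimic in unsilenced cells called 2, but 4 with probes above background on all 12 arrays and 0 with only the arrays compared. By the methods' paired t-test it was 0 adjusted and 1 unadjusted, SMAD4 and not TGFBR2. When replicates or arrays were left out the count was 0 to 2. Without replicate 1 and without replicate 3 the count was 0. Without replicate 2, without cntrl replicate 1 or without cntrl replicate 3 it was 1. In silenced cells the count of 0 became 1 with normexp, 1 in the authors' table, 2 with probes above background on all 12 arrays and 1 by the unadjusted paired test. Silencing alone went from 0 to 1 with that probe filter and to 2 by the unadjusted paired test. Silencing with the mimic went from 0 to 1 with normexp, the authors' table, that filter, the trend and the unadjusted paired test. These last 3 comparisons and the difference of effects stayed at 0 with every replicate or array left out.

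Over all genes, leaving out replicates or arrays gave 1211 to 4429 calls with the mimic and 0 to 2291 in silenced cells. Silencing alone gave 0 to 590, silencing of mimic-treated cells 0 to 806 and the difference of effects 0 to 3. With only 1 array left out the lowest counts, in this order, were 2564, 76, 23, 132 and 0. The shares over all genes thus move with single arrays too.

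Without the replicate block, the pairing being ignored, the calls among the 10 genes did not change, while 1997 rather than 4119 genes of the series were called with the mimic, 78 rather than 1327 in silenced cells, 48 rather than 471 with silencing alone and 100 rather than 786 with silencing of mimic-treated cells. Pathway and response genes then gave 17 rather than 31, 0 rather than 10, 0 rather than 6 and 2 rather than 10. With slide as a random block and no replicate block, silencing alone gave 0 and silencing with the mimic 2.

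For the pathway and response genes with the mimic, only the arrays compared gave 16, the adjusted paired test 0, and left-out replicates or arrays 11 to 33. In silenced cells the 10 became 19 with 75th percentile scaling, 18 with normexp, 18 in the authors' table, 6 with the median over probes, 0 with only the arrays compared, 0 and 22 by the paired test adjusted and unadjusted, and 0 to 18 with replicates or arrays left out. Silencing alone, at 6, gave 11 with normexp, 11 with probes above background on all arrays, 0 and 14 by the paired test, and 0 to 7 with arrays left out. Silencing with the mimic, at 10, gave 4 with the median over probes, 0 with only the arrays compared, 0 by the adjusted paired test and 0 to 12 with arrays left out. The difference of effects, at 0, gave 4 with normexp, 3 with probes above background on all arrays and 11 by the unadjusted paired test. Scaling to the 75th percentile moved the median of all genes in silenced cells from 0.02 to 0.11, and the calls there from 774 higher of 1327 to 1916 higher of 2391.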
